A study of Mus musculus with 14 samples.

Results

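The sirtuins are the NAD-dependent protein deacylases encoded by *Sirt1* to *Sirt7*. All 7 genes were included by name, and they were followed among the 43944 genes that had a value in every sample of the 3-day experiment and the 33473 that had one in the restimulation experiment. RNA-Seq measured 14 samples of CD4+ T cells from C57BL/6 mice in 2 experiments. The labels give spleen as the source, while the study's methods describe a pool of spleen and lymph node cells for the isolation of CD4+ T cells. In the 3-day experiment, 4 WT and 4 HDAC1cKO-HDAC2HET samples came from naive CD4+ T cells stimulated through CD3 and CD28 for 3 days, with IL-2 and without polarizing cytokines. In the restimulation experiment, 3 WT and 3 HDAC1cKO samples were activated for 3 days and then stimulated for a further 12 hours with anti-CD3.

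HDAC1cKO-HDAC2HET mice carry HDAC1f/f, HDAC2f/+ and CD4-cre, so that *Hdac1* is floxed on both alleles and *Hdac2* on 1. HDAC1cKO mice carry HDAC1f/f and CD4-cre. The *Cd4* promoter drives Cre during thymic T cell development, and the alleles are therefore deleted long before the cells are activated in culture. The WT samples are given as wild type, and viable cells were sorted before RNA was made. Genotype, culture, and experiment change together between the 2 experiments, and their parts in a difference between the experiments cannot be told apart.

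Sirtuins remove acetyl and other acyl groups from lysines and use NAD+ as a cosubstrate, whereas HDAC1, HDAC2 and the other classical deacetylases use zinc. SIRT1, SIRT6 and SIRT7 are mainly nuclear, SIRT2 is mainly cytosolic, and SIRT3, SIRT4 and SIRT5 are mitochondrial. In T cells SIRT1 is best known as a brake on activation. SIRT6 represses glycolytic genes, SIRT3 is the main mitochondrial deacetylase, SIRT5 removes succinyl and malonyl groups, and SIRT7 acts at ribosomal RNA genes.

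Stretches of the start regions are shown for 3 of the members that changed. They were taken from RefSeq on GRCm38.p6 and are written 5′ to 3′ on the strand of the gene, and capitals mark matches to the motifs searched. The *Sirt5* stretch (chr13:43365285-43365495, plus strand) and the *Sirt2* stretch (chr7:28766641-28766734, plus strand) lie upstream of the start site and outside every annotated exon, the latter within an intron of an *Nfkbib* transcript on the minus strand. The *Sirt6* site (chr10:81627690-81627719, minus strand) covers 30 bases.
Sirt5: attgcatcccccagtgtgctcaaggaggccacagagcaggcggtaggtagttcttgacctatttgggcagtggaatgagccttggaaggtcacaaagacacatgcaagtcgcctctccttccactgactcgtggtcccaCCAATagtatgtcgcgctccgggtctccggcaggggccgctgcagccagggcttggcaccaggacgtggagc
Sirt2: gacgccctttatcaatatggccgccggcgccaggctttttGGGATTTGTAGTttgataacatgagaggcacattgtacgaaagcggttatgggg
Sirt6: catcaggaggGCGCATGCGCtctggaaaga

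Windows of 300 bases, from 250 before to 50 after the start site, were searched on both strands for 6 motifs, and no match overlapped another in the stretches shown. A match describes the letters only. The sirtuins had 9 such windows for 7 genes. *Sirt3* and *Sirt6* had more than 1, and are named below where any of theirs held the motif. The *Sirt2* window held 2 copies of the ZNF143 core, whose reverse complement is in capitals above, and the *Sirt4* window held 1, against 0.95% of all 32851 windows with a copy. The NRF1 core, in capitals in the *Sirt6* line, was found in 1 *Sirt6* window and in 0.971% of all windows. CCGGAA, the ETS core, was found in 14.9% of all windows, among them those of *Sirt3*, *Sirt4* and *Sirt6*. CCAAT was in 37.4% of all windows and in those of *Sirt2*, *Sirt3* and *Sirt5*. GGGCGG was in 35.7%, with 7 copies in the window of *Sirt1* and fewer in those of *Sirt2*, *Sirt3*, *Sirt5* and *Sirt6*. CACGTG was in 7.15% and 2 times in that of *Sirt1*.

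Values are FPKM, the number of fragments scaled to the length of the transcript and to the depth of the library, which Cufflinks made for each library separately. Fold changes and their SE are on the log2(FPKM + 0.1) scale, and adjusted p values are from limma with Benjamini-Hochberg adjustment over all genes tested. A gene was called at an adjusted p of at most 0.05. Estimated depth ran from 20700000 fragments in HDAC1cKO-HDAC2HET replicate 3 to 48600000 in HDAC1cKO-HDAC2HET replicate 4. *Hdac1* averaged 78.1 ± 1.44 FPKM in the WT and 8.30 ± 1.89 in the HDAC1cKO-HDAC2HET samples (SD, n = 4), and 75.6 ± 4.78 in the WT and 10.1 ± 1.82 in the HDAC1cKO samples (SD, n = 3). *Hdac2* averaged 59.0 ± 1.04 and 35.4 ± 1.36 FPKM in the 3-day experiment (SD, n = 4). The deleted genes thus followed the labels in every sample. The summed FPKM of 6 T cell markers was 1140 to 1250 in the WT and 891 to 911 in the HDAC1cKO-HDAC2HET samples, that of 2 CD8 markers 3.28 to 5.96 and 11.7 to 15.2, and that of 5 B cell markers 0.502 to 0.945 and 2.79 to 4.40. Of the 2 B cell markers that could be tested, *Cd79b* was called (log2 fold change 2.87) and *Cd79a* was not (0.35, adjusted p = 0.392). The sum of 7 myeloid markers was 0.207 to 3.30 and 2.05 to 4.57 FPKM. Among them *Csf1r* was listed at 0 in all 8 samples, which can be a failed estimate and is not read as absence. The sums of the NK and erythroid markers stayed at or under 0.0738 FPKM in these samples. In the restimulation experiment only the CD8 sum separated the groups, at 3.80 to 4.86 in the WT and 6.52 to 7.30 in the HDAC1cKO samples. The part of these cells in the sirtuin values was not tested, and fewer cells of a type cannot be told apart from less RNA per cell.

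In the WT samples of the 3-day experiment *Sirt2* had the highest level, followed by *Sirt7*, *Sirt6*, *Sirt1*, *Sirt5* and *Sirt4*. The mean FPKM, a level per length of transcript, was 32.0 ± 2.04 for *Sirt2*, 28.7 ± 1.09 for *Sirt7*, 20.1 ± 2.49 for *Sirt6*, 10.8 ± 0.680 for *Sirt1*, 6.59 ± 0.533 for *Sirt5* and 3.86 ± 0.963 for *Sirt4* (SD, n = 4). The ranges of neighbours in this order did not overlap. In the HDAC1cKO-HDAC2HET samples *Sirt7* was above *Sirt2* in all 4 samples, and *Sirt4* and *Sirt5* had exchanged places at the low end with ranges that overlapped. In the restimulated WT samples the order was *Sirt2*, *Sirt6*, *Sirt1*, *Sirt4* and *Sirt5*, and *Sirt1* overlapped with *Sirt6* and with *Sirt4*. The HDAC1cKO samples had the same order, and among neighbours only *Sirt1* and *Sirt4* overlapped.

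*Sirt3* was listed at 0 FPKM in all 14 samples. Its locus (chromosome 7, 140863670 to 140882309) spanned nearly the whole annotated gene, and it overlaps *Ric8a* by 707 and *Psmd13* by 342 bases on the opposite strand. A total of 310 genes had a matched locus at 0 in every sample in the same way, among them genes that every cell uses, such as *Srp54a*, *Tsen34* and *Usp16*. Such a 0 can be a failed estimate, so *Sirt3* was left out of every test and nothing is said of its expression.

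**Figure D1:**
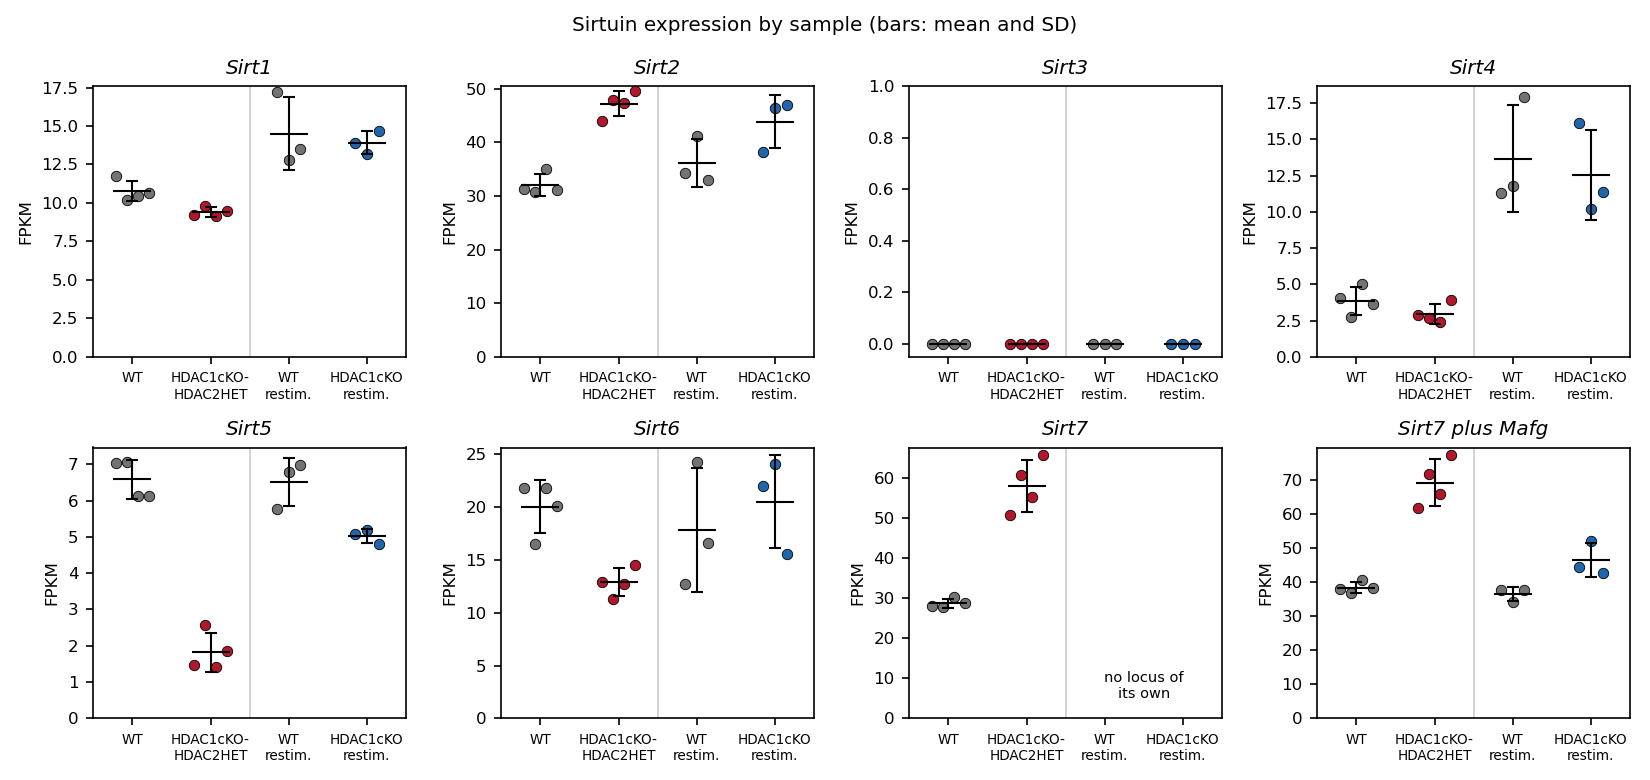
FPKM (vertical axis) of each sirtuin in every sample, with the 4 groups on the horizontal axis, points for samples and bars for the mean and SD. *Sirt5* was at 1.4 to 2.57 FPKM in the HDAC1cKO-HDAC2HET samples and at 4.80 or more in all others. *Sirt7* rose above every WT sample of the 3-day experiment, and *Sirt3* was listed at 0 throughout. The last panel gives the sum of *Sirt7* and *Mafg* in the 3-day experiment and their joint locus in the restimulation experiment.

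To find which sirtuins changed when HDAC1 was lost and HDAC2 reduced, HDAC1cKO-HDAC2HET samples were compared with the WT samples of the same experiment. *Sirt5* fell to 0.276 of its WT level and *Sirt6* to 0.642, while *Sirt7* rose 2.02-fold and *Sirt2* 1.47-fold. *Sirt1* fell to 0.874 of WT, and *Sirt4* did not pass the test. Of the 6 sirtuins tested, 2 were called higher and 3 lower, against 51.8% of all 15138 genes tested called in either direction, 24.2% higher and 27.6% lower. With a change of at least 2-fold as a further condition, *Sirt7* and *Sirt5* remained, against 11.2% of all genes. *Sirt7* lay close to that limit, at a log2 fold change of 1.01, and it was under 2-fold with a pseudocount of 1 (0.99), with upper quartile scaling (0.98), and without HDAC1cKO-HDAC2HET replicate 2 (0.99) or 4 (0.95). The median log2 fold change was -0.28 over the 6 sirtuins and -0.05 over all genes, and the median size without sign was 0.59 and 0.35. The groups did not overlap for 5 of the 6, against 50.3% of all genes. All 8 samples entered each fit.

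*Sirt5* encodes the mitochondrial desuccinylase, and its gene lies on chromosome 13 from 43365496 to 43395203 on the plus strand. Its level was 7.04, 7.06, 6.12 and 6.14 FPKM in the WT samples and 1.46, 2.57, 1.4 and 1.84 FPKM in the HDAC1cKO-HDAC2HET samples. Every mutant sample was below every WT sample, and the log2 fold change was -1.84 with an SE of 0.18 (adjusted p = 9.52e-05). The exact permutation test gave p = 0.0286, the smallest value that 70 arrangements of 4 against 4 allow. In all 14 libraries the assembled locus began at position 43370710, downstream of the annotated start and of the stretch printed above, so the value covers 0.8245 of the joint span. This was the member with the largest change in size.

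*Sirt7*, whose product deacetylates histone H3 and is linked to ribosomal RNA synthesis, lies on chromosome 11 from 120618372 to 120625240 on the minus strand. It measured 27.9, 27.9, 30.2 and 28.7 FPKM in the WT and 50.8, 60.6, 55.2 and 65.7 FPKM in the HDAC1cKO-HDAC2HET samples. The lowest mutant sample was far above the highest WT sample, with a log2 fold change of 1.01 (SE 0.08, adjusted p = 2.80e-05). The gene overlaps *Mafg*, which encodes a small MAF transcription factor, by 124 bases on the same strand. *Mafg* itself was at 8.93 to 10.4 FPKM in the WT and 10.7 to 11.8 FPKM in the HDAC1cKO-HDAC2HET samples.

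*Sirt2*, the cytosolic tubulin deacetylase, lies on chromosome 7 from 28766735 to 28788661 on the plus strand. Its level was 31.2, 30.7, 35.1 and 31.1 FPKM in the WT and 44.0, 47.8, 47.3 and 49.5 FPKM in the HDAC1cKO-HDAC2HET samples. The groups were apart, and the log2 fold change was 0.56 with an SE of 0.05 (adjusted p = 8.74e-05). *Nfkbib* overlaps the start of *Sirt2* by 778 bases on the opposite strand.

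*Sirt6*, the chromatin deacetylase that represses glycolytic genes, lies on chromosome 10 from 81621785 to 81627797 on the minus strand. The WT samples had 21.8, 16.5, 21.8 and 20.1 FPKM and the HDAC1cKO-HDAC2HET samples 12.9, 11.3, 12.8 and 14.5 FPKM. All 4 mutant samples were below all 4 WT samples, with a log2 fold change of -0.63 (SE 0.11, adjusted p = 0.00173).

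*Sirt1*, the nuclear deacetylase of p53, FOXO and NF-kB proteins, lies on chromosome 10 from 63319005 to 63381704 on the minus strand. It was at 11.8, 10.2, 10.5 and 10.7 FPKM in the WT and at 9.22, 9.83, 9.14 and 9.50 FPKM in the HDAC1cKO-HDAC2HET samples. The groups did not overlap, but the change was small, with a log2 fold change of -0.19 (SE 0.05, adjusted p = 0.0159), and the call was lost when both experiments were put in 1 fit (adjusted p = 0.0817).

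*Sirt4*, a mitochondrial member with weak deacetylase activity, lies on chromosome 5 from 115478010 to 115484725 on the minus strand. Its level was 4.06, 2.73, 5.05 and 3.61 FPKM in the WT and 2.91, 2.65, 2.37 and 3.89 FPKM in the HDAC1cKO-HDAC2HET samples. The groups overlapped, and the log2 fold change of -0.37 (adjusted p = 0.190) had a 95% interval from -0.86 to 0.13.

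FPKM depends on the length Cufflinks assigned to a transcript, and this length can be read back from the deposited confidence bounds where those hold counting error alone. Each value then gives an implied number of fragments and an implied length, and the former was divided by the estimated depth to give implied fragments per 1000000 (FPM). For *Sirt5* the implied FPM was 7.27, 7.05, 8.16 and 8.15 in the WT and 1.86, 1.79, 1.75 and 1.79 in the HDAC1cKO-HDAC2HET samples. The mutant samples lay closer together on this measure than in FPKM, and their mean was 0.235 of the WT mean. They rested on only 36 to 87 implied fragments, so this closeness is not read as precision. *Sirt7* kept groups that did not overlap, at 22.9 to 27.6 and 31.7 to 41.8 FPM, with a ratio of 1.48 in place of 2.02, and its implied length was 0.820 to 0.915 kb in the WT and 0.483 to 0.757 kb in the mutant samples.

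For *Sirt6* the groups overlapped on this measure, at 17.8 to 21.4 and 14.3 to 18.5 FPM. The ratio was 0.846 in place of 0.642, with an exact permutation p of 0.0571, and the implied length was 0.879 to 1.21 kb in the WT and 0.985 to 1.49 kb in the HDAC1cKO-HDAC2HET samples. *Sirt2* also overlapped, with a ratio of 1.30 and an exact permutation p of 0.0571, and *Sirt1* had a ratio of 0.944 with an exact permutation p of 0.171. At high levels the bounds hold more than counting error: the implied length of *Hdac1* ran from 0.495 to 2.15 kb over the WT samples although its FPKM ran only from 76.3 to 79.6. For *Hdac2*, which was floxed in the HDAC1cKO-HDAC2HET samples, the groups also overlapped on implied FPM. The ratio was 0.849 in place of 0.599, with an exact permutation p of 0.2, although the groups did not overlap in FPKM. The *Hdac2* overlap came through HDAC1cKO-HDAC2HET replicate 3, at 43.2 FPM against 28.7 to 32.0 in the others. That of *Sirt6* came through replicate 1, at 18.5 against 17.8 in WT replicate 4. Overlap on this measure cannot decide whether *Sirt2* and *Sirt6* changed, since it also failed to separate a floxed gene. Their smaller changes on it remain a limit of their fold changes. The separation of *Sirt7* does not decide either, since its FPKM lay around that of *Hdac2*. *Sirt4* and *Sirt5* had the fewest implied fragments, but their implied lengths also varied within groups. These ran from 0.728 to 1.45 kb for *Sirt4* in the 3-day WT samples. For *Sirt5* they ran from 0.698 to 1.28 kb in the HDAC1cKO-HDAC2HET samples. Whether the bounds of these genes hold counting error alone was not tested. This measure was chosen after the data had been seen.

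**Figure D2:**
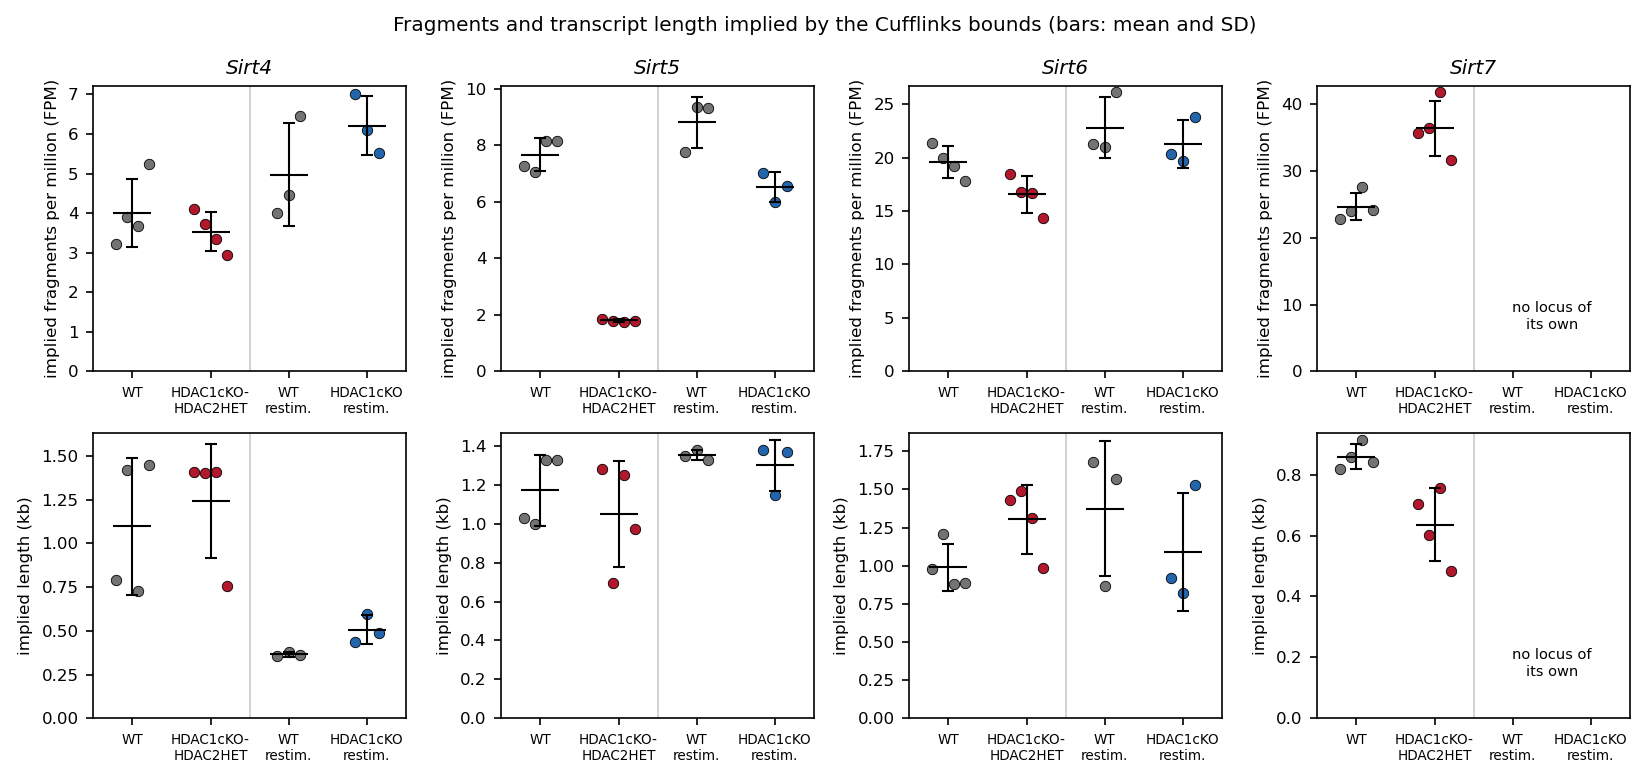
FPM (upper row) and transcript length in kb (lower row) implied by the confidence bounds of 4 sirtuins, with groups on the horizontal axis, points for samples and bars for the mean and SD. *Sirt5* of the HDAC1cKO-HDAC2HET samples sat at 1.75 to 1.86 FPM, and the implied length of *Sirt4* was 0.355 to 0.379 kb in the restimulated WT samples against 0.728 to 1.45 kb in the 3-day WT samples.

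To find whether loss of HDAC1 with both *Hdac2* alleles in place changed the sirtuins, HDAC1cKO samples were compared with WT samples after restimulation. *Sirt5* was at 0.772 and *Sirt2* at 1.21 of the WT mean, and the means of *Sirt1*, *Sirt4* and *Sirt6* were within the spread of the samples. None of the 5 sirtuins tested was called by limma, against 0.0927% of all 14029 genes, and 1 of the 5 (*Sirt5*) had an unadjusted p under 0.05, against 14.2% of all genes. With 3 against 3 samples the exact permutation test cannot give a p below 0.1. The median log2 fold change was -0.05 over the 5 sirtuins and -0.03 over all genes.

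*Sirt5* was at 5.76, 6.78 and 6.99 FPKM in the WT and at 5.07, 5.2 and 4.80 FPKM in the HDAC1cKO samples. Each HDAC1cKO sample was below each WT sample, which was so for 1 of the 5 sirtuins and, in either direction, for 22.3% of all genes. The log2 fold change was -0.36 (SE 0.12, adjusted p = 0.280), with a 95% interval from -0.65 to -0.08 that is not adjusted for the number of genes. The implied FPM was 7.77, 9.33 and 9.30 in the WT and 7.01, 5.98 and 6.57 in the HDAC1cKO samples, which did not overlap either.

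*Sirt2* was at 34.2, 41.2 and 32.9 FPKM in the WT and at 38.2, 46.4 and 46.9 FPKM in the HDAC1cKO samples. These overlapped, and the log2 fold change was 0.28 (SE 0.13, adjusted p = 0.382). *Sirt6* was at 12.7, 24.2 and 16.6 FPKM in the WT and at 22.0, 24.1 and 15.6 FPKM in the HDAC1cKO samples, with a log2 fold change of 0.23 (SE 0.28, adjusted p = 0.728) and a 95% interval from -0.45 to 0.90. Both groups were widely spread, and on implied FPM the WT samples had 21 to 26.1 and the HDAC1cKO samples 19.7 to 23.8, a ratio of 0.932 and thus in the other direction. *Sirt1* was at 17.2, 12.8 and 13.5 FPKM in the WT and at 13.9, 13.2 and 14.7 FPKM in the HDAC1cKO samples, with a 95% interval of the log2 fold change from -0.37 to 0.27.

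*Sirt4* was at 11.3, 11.8 and 17.9 FPKM in the WT and at 16.1, 10.2 and 11.4 FPKM in the HDAC1cKO samples. The groups overlapped, and the 95% interval of the log2 fold change ran from -0.71 to 0.48. These levels were above those of the 3-day experiment, where the WT mean was 3.86 FPKM against 13.7 FPKM here, a ratio of 3.53. On implied FPM the WT means were 4.01 and 4.97, and the ranges of 3.22 to 5.24 and 4.00 to 6.45 overlapped. The implied length was shorter in all 3 restimulated WT samples, at 0.355 to 0.379 kb, than in the 3-day WT samples, at 0.728 to 1.45 kb.

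*Sirt7* had no locus of its own in the restimulation experiment. In all 6 libraries *Sirt7* and *Mafg* were assembled as 1 locus on chromosome 11 from 120618372 to 120633600, whose share of the joint span with *Sirt7* was 0.451. The joint locus was at 37.8, 34.2 and 37.7 FPKM in the WT and at 44.6, 52.1 and 42.8 FPKM in the HDAC1cKO samples. The groups did not overlap, with a log2 fold change of 0.34 (SE 0.10, adjusted p = 0.243). The sum of the *Sirt7* and *Mafg* loci in the 3-day experiment averaged 38.4 ± 1.58 FPKM in the WT and 69.3 ± 6.88 FPKM in the HDAC1cKO-HDAC2HET samples (SD, n = 4), with a log2 fold change of 0.85 (SE 0.07, adjusted p = 4.30e-05). This sum was chosen after the data had been seen.

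**Figure D3:**
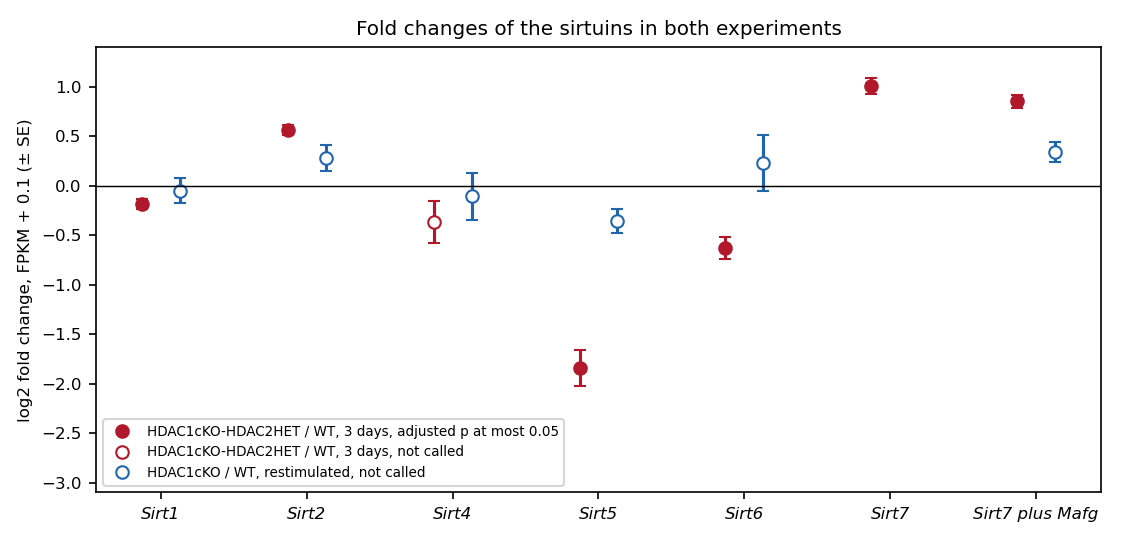
Log2 fold changes of mutant over WT on the log2(FPKM + 0.1) scale (vertical axis, bars for the SE) for the sirtuins on the horizontal axis in both experiments. Filled points passed an adjusted p of 0.05, which 5 of 6 sirtuins did in the 3-day experiment and none of 5 in the restimulation experiment, and *Sirt5* lay at -1.84 and -0.36.

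Whether the fold changes differed between the experiments was tested over all 14 samples. The fold change of *Sirt5* was lower in HDAC1cKO-HDAC2HET than in HDAC1cKO samples by -1.47 on the log2 scale (SE 0.24, adjusted p = 0.00180), and it was the only one of the 5 sirtuins tested that was called, against 15.7% of all 12368 genes in either direction and 7.45% lower. The adjusted p of *Sirt5* stayed under 0.05 without any of the 14 samples, at 0.000292 to 0.00542. The difference for *Sirt6* was -0.86 (SE 0.29, adjusted p = 0.0629). It became -1.10 (adjusted p = 0.0119) without WT replicate 2 and -1.05 (adjusted p = 0.0309) without HDAC1cKO replicate 3 of the restimulation experiment. *Sirt2* differed by 0.28 (adjusted p = 0.177), *Sirt1* by -0.14 (adjusted p = 0.513), and *Sirt4* by -0.25 (adjusted p = 0.678). For *Sirt7* with *Mafg* the difference was 0.50 (SE 0.12, adjusted p = 0.0147). It sets a sum of 2 loci in the 3-day experiment against 1 joint locus in the restimulation experiment, which are unlike measures. The call was lost with the replicate number as a block (adjusted p = 0.0626) and with a sex covariate (adjusted p = 0.113).

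Genes that work with the sirtuins were followed in 8 lists, of which 71 genes could be tested in each experiment. In the 3-day experiment 20 were called higher and 27 lower, and in the restimulation experiment limma called none. Each list is given below with its count, which can be read against 24.2% of all genes called higher and 27.6% called lower, and with the 2 called members that had the largest change, a choice made after the values were seen. Other members are named for their role.

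Sirtuins take their NAD+ from the salvage and de novo pathways. Of 14 genes listed under NAD supply, 11 were tested, with 3 higher and 3 lower and a median log2 fold change of 0.02. The list also holds the NAD kinase genes *Nadk* and *Nadk2*, whose products use NAD+ to make NADP+. *Nadk2* was among those called higher (log2 fold change 0.38, adjusted p = 0.000406), and *Nadk* was not called. *Naprt*, which starts NAD synthesis from nicotinic acid, was at 1.44 FPKM in WT and at 3.95 in HDAC1cKO-HDAC2HET samples, a rise of 1.41 on the log2 scale (adjusted p = 0.00254). *Kmo*, an enzyme of the kynurenine pathway, fell by 1.03 on the log2 scale (adjusted p = 0.0202) at levels under 1 FPKM, with groups that overlapped, and its call was lost without WT replicate 1 (adjusted p = 0.0543) or HDAC1cKO-HDAC2HET replicate 1 (adjusted p = 0.0508). *Nampt*, the rate-limiting enzyme of salvage, was at 61.0 FPKM in WT and 57.6 FPKM in HDAC1cKO-HDAC2HET samples (adjusted p = 0.403).

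Of 10 genes listed under other NAD consumers 8 were tested, and 0 were called higher and 4 lower, with a median of -0.14. *Bst1* and *Nnmt* were not tested, and the latter encodes no NAD-consuming enzyme. The tankyrases *Tnks2* and *Tnks* fell by 0.37 and 0.22 on the log2 scale, and the call of *Tnks* was lost with both experiments in 1 fit (adjusted p = 0.146). *Parp1*, the main poly(ADP-ribose) polymerase, fell by 0.15 (adjusted p = 0.0242), with groups that overlapped. Its call was lost without WT replicate 2 or 4 or HDAC1cKO-HDAC2HET replicate 1, 2 or 3, at adjusted p values of 0.0537 to 0.0628. *Cd38*, the NAD glycohydrolase, was at 1.20 and 1.45 FPKM (adjusted p = 0.213).

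All 7 regulators of SIRT1 were tested, with 3 higher and 2 lower. *Hic1*, a transcriptional repressor of *Sirt1*, was at 1.24 and 3.98 FPKM, a rise of 1.60 on the log2 scale (adjusted p = 0.000443). *Rps19bp1*, which encodes the SIRT1 activator AROS, had a log2 fold change of 0.32 (adjusted p = 0.0492) with groups that overlapped, and this call was lost without any of WT replicates 2, 3 and 4 and HDAC1cKO-HDAC2HET replicates 2, 3 and 4 (adjusted p = 0.0743 to 0.118), and under 6 other alternatives (adjusted p = 0.0509 to 0.123). *Ccar2*, which encodes the SIRT1 inhibitor DBC1, was at 30.8 and 29.4 FPKM (adjusted p = 0.130).

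Among 10 nuclear and cytosolic substrates of the sirtuins 9 were tested, with 2 higher and 5 lower. *Foxo3* fell by 0.67 (adjusted p = 4.36e-05) and *Rela*, the NF-kB subunit p65, by 0.45 (adjusted p = 0.000354) on the log2 scale. *Foxo1* had a log2 fold change of 0.13 (adjusted p = 0.0683).

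Mitochondrial substrates showed 5 genes higher and 1 lower among 11 tested of 13, with a median log2 fold change of 0.05. *Acss1*, the mitochondrial acetyl-CoA synthetase, was at 0.837 and 3.53 FPKM, a rise of 1.96 on the log2 scale (adjusted p = 6.47e-06). *Idh2*, the NADP-dependent isocitrate dehydrogenase, was at 29.2 and 56.9 FPKM, a rise of 0.96 on the log2 scale (adjusted p = 2.37e-07). *Acadl*, an acyl-CoA dehydrogenase of fatty acid oxidation, rose from 46.4 to 64.7 FPKM (adjusted p = 1.99e-05).

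The 9 genes listed around SIRT6 and glycolysis were all tested, with 2 higher and 4 lower. The list also holds the transcription factor gene *Hif1a*, which was not called, and the pyruvate dehydrogenase kinase gene *Pdk1*. *Pdk1* was among those called lower (log2 fold change -0.35, adjusted p = 0.0066). *Aldoc* fell by 1.48 (adjusted p = 0.00456), and *Pfkm* rose by 0.98 (adjusted p = 0.00116) on the log2 scale. The glucose transporter gene *Slc2a1* fell from 65.6 to 45.7 FPKM (adjusted p = 0.00107), whereas *Ldha* rose from 1620 to 2010 FPKM (adjusted p = 0.00218). The called genes of the list thus moved in both directions.

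Around ribosomal RNA transcription, where SIRT7 acts, 8 genes were listed and 7 tested. Of these 4 were higher and 3 lower, with a median of 0.24. The list also holds *Elk4* and *Gabpb1*, transcription factor genes outside the RNA polymerase I machinery. *Elk4* was not tested in the 3-day experiment, and *Gabpb1* was among those called lower (log2 fold change -0.12, adjusted p = 0.0237). The polymerase subunit genes *Polr1c* and *Polr1e* rose by 0.47 and 0.34 on the log2 scale, and *Polr1b* and *Polr1d* by 0.24 and 0.29. The subunit gene *Polr1a* went the other way and fell by 0.33 (adjusted p = 0.0185). *Ubtf*, the upstream binding factor of RNA polymerase I, fell by 0.22 (adjusted p = 0.0111).

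The zinc-dependent deacetylases that were not deleted had 1 gene higher and 5 lower among 9 tested, with a median of -0.23. *Hdac9* fell by 0.91 (adjusted p = 0.0178) at levels under 1 FPKM, and *Hdac7*, a class IIa enzyme abundant in T cells, was at 161 and 88.7 FPKM, a log2 fold change of -0.86 (adjusted p = 7.68e-05). *Hdac3* rose by 0.11 (adjusted p = 0.0192), a call that was lost without WT replicate 1 (adjusted p = 0.0525), with both experiments in 1 fit (adjusted p = 0.0978), and without a variance trend (adjusted p = 0.0501).

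**Figure D4:**
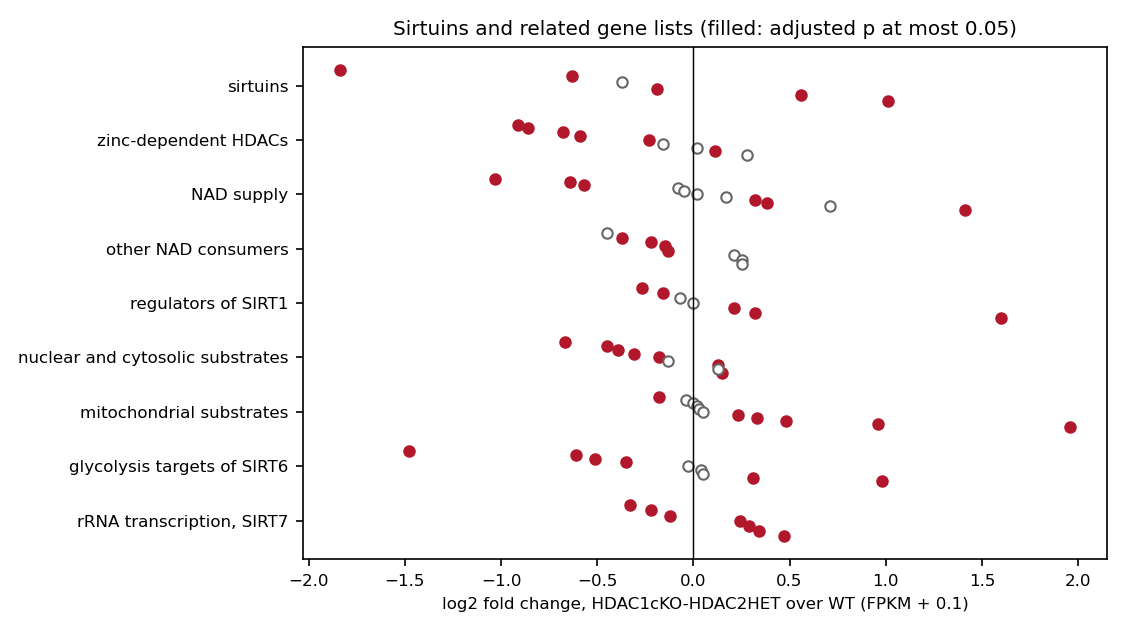
Log2 fold changes of HDAC1cKO-HDAC2HET over WT on the log2(FPKM + 0.1) scale (horizontal axis) for the sirtuins and the 8 lists (vertical axis). Each point is a gene, filled where its adjusted p was at most 0.05, and *Sirt5* at -1.84, *Acss1* at 1.96 and *Hic1* at 1.60 lie farthest out.

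The genes whose log2 level was most like that of a sirtuin over the 8 samples of the 3-day experiment were searched among 8737 protein-coding genes, by Pearson's r. These samples hold a mutant and a WT group, and r reflects that split above all. For *Sirt5* the closest were *3830406C13Rik* (r = 0.996), *Ubash3a* (r = 0.994), a negative regulator of T cell receptor signals, and *Cox7b* (r = 0.992), a subunit of cytochrome c oxidase. Over the 6 samples of the restimulation experiment their r with *Sirt5* was 0.85, 0.82 and 0.80. For *Sirt2* they were *Brat1*, *Lrp8* and *Gtf2b* (r = 0.998 to 0.996), whose r in the restimulation experiment was -0.01, 0.37 and 0.12. For *Sirt7* they were *Cox5b*, *Txndc11* and *Slc35b1* (r = 0.998, 0.998 and 0.997). For *Sirt6* they were *Dnajb14*, *Lnx2* and *Rtn4* (r = 0.980, 0.978 and 0.977), with 0.09, -0.50 and -0.04 in the restimulation experiment. For *Sirt1* they were *Lysmd2*, *Suox* and *Tmem88* (r = 0.971, 0.969 and 0.968), all with a negative r in the restimulation experiment, and for *Sirt4* *Mif*, *Wrb* and *Pgm1* (r = 0.943, 0.936 and 0.930), likewise negative there.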

How the data were processed

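RNA-Seq covered 14 samples, and the study's methods describe TruSeq Stranded mRNA libraries sequenced as single reads. For the comparison of HDAC1cKO with WT cells the study cites earlier work. It does not say whether its own library and alignment methods hold for the restimulation experiment. The paper's methods name TopHat on mm10 and Cufflinks for the FPKM values the authors deposited per library, whereas the submitters' processing notes list STAR 2.5.2b and Subread 1.5.1. The deposited FPKM values were used as given, and counts were not used here. Files name few sirtuins, so loci were matched by position to GENCODE genes, or to single transcripts of them, on GRCm38 at 0.8 of the joint span. Rows listed by name were taken without this limit. A matched locus at 0 was left out.

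The 2 experiments were fitted separately on log2(FPKM + 0.1) by limma 3.58.1 (R 4.3.3), keeping genes whose mean reached 0.1 FPKM, with a variance trend and Benjamini-Hochberg adjustment. The difference between fold changes was fitted over all 14 samples with 4 group means. Single genes were also compared with 2-sided exact permutation tests (70 or 20 arrangements). The 4 batches of each group in the 3-day experiment were prepared independently on the same day, per the study's methods, and nothing says how the other replicates were separated, so p values there measure the spread between samples, which may be technical. Depth was estimated from the deposited confidence bounds, with 82.0% to 88.1% of low genes giving whole fragments within 0.05. The implied number of fragments of a value took its upper bound as 2 SD above it. Scripts were tested on simulated data.

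Sirtuins and gene lists were chosen with earlier results of these data known. Named genes were the sirtuins, *Hdac1*, *Hdac2*, list members, and for each sirtuin the 3 protein-coding genes with the highest r (mean FPKM at least 1 in both experiments). Alternatives changed the pseudocount, filter, scaling, variance model, weights, covariates, locus matching, and each sample. The sex covariate was not a label but whether a sample's *Xist* level was above 1 FPKM, and the 3-day experiment alone gave no fit with it. The start region of *Sirt7* is not reported here.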

Additional observations from a re-analysis of the deposited data

Results flagged for a closer look

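Fold changes that differed between the experiments by the test of the difference itself were found for several genes, each given as the HDAC1cKO-HDAC2HET log2 fold change minus that of HDAC1cKO. *Sirt5* differed by -1.47 (adjusted p = 0.00180) and *Hdac2*, of which a single allele was floxed in only 1 experiment, by -0.89 (adjusted p = 0.000329). The sum of *Sirt7* and *Mafg* differed by 0.50 (adjusted p = 0.0147). Among the list members, *Hic1* differed by 1.96 (adjusted p = 0.0223), *Acss1* by 1.32 (adjusted p = 0.00655), *Polr1c* by 0.92 (adjusted p = 0.0121), *Foxo1* by 0.64 (adjusted p = 0.00266), *Idh2* by 0.61 (adjusted p = 0.000922), and *Acadl* by 0.35 (adjusted p = 0.00237). Lower in HDAC1cKO-HDAC2HET were *Slc2a1* by -0.67 (adjusted p = 0.00615), *Rela* by -0.54 (adjusted p = 0.00184), and *Tnks2* by -0.27 (adjusted p = 0.0204). The calls of *Tnks2*, *Hic1* and *Polr1c* were lost with separate spreads (adjusted p = 0.0823, 0.0513 and 0.0525), those of *Tnks2* and *Hic1* also with a sex covariate (adjusted p = 0.130 and 0.117), and that of *Tnks2* with the replicate block (adjusted p = 0.0902). All p values are from limma over 14 samples, and genotype, culture, and experiment cannot be told apart.

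A single sample stood far from the other 3 of its group in 4 of 72 groups tested, where chance gives about 1 in 20. *Sirt2* was at 35.1 FPKM in WT replicate 3 of the 3-day experiment and at 30.7 to 31.2 in the others. *Rps19bp1* was at 45.1 FPKM in WT replicate 1 and at 34.0 to 35.5 in the others. *Hic1* was at 2.61 FPKM in HDAC1cKO-HDAC2HET replicate 1 and at 4.36 to 4.49 in the others, and *Ccar2* at 31.1 FPKM in that sample and at 28.7 to 29 in the others.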

How the results depend on the processing

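In the 3-day experiment *Sirt2*, *Sirt5*, *Sirt6* and *Sirt7* kept their direction and their limma call under every alternative that gave a value. The count of sirtuins called higher was 1 with both experiments in 1 fit, in which *Sirt7* had no value. *Sirt1* lost its call in that fit (-0.19, adjusted p = 0.0817) and with the replicate block (-0.19, adjusted p = 0.0564). Deviations of same-numbered samples correlated at -0.007 to 0.062 in this experiment. The numbers thus showed no pairing, which does not establish that the samples were unpaired. With the implied fragments the exact permutation p was 0.171 for *Sirt1*, 0.0571 for *Sirt2* and 0.0571 for *Sirt6*. It was 0.2 for the floxed gene *Hdac2*, so these values do not decide whether the sirtuins changed. The smaller changes on this measure remain a limit of their fold changes. Without single samples the exact permutation p ranged from 0.0286 to 0.0571 for *Sirt1* and *Sirt6*. Rows listed by name only gave no value for a single sirtuin, and list genes called higher and lower were then 1 and 0. Matching at 0.95 left *Sirt5* at -1.84, but this was no check of its locus. Rows listed by name needed no match and a single transcript also counted as one, so the same locus entered. *Foxo1* was called with median ratio scaling, with sample weights, and without HDAC1cKO-HDAC2HET replicate 3. Calls of *Hdac9* (adjusted p = 0.0504) and *Rps19bp1* (adjusted p = 0.123) were lost with the replicate block.

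In the restimulation experiment no sirtuin was called under any alternative, but uncalled values changed sign. *Sirt1* was at 0.05 with sample weights, 0.12 with a sex covariate and -0.13 to 0.08 without single samples (exact permutation p 0.4 to 1.0). *Sirt4* was at 0.06 with the sex covariate and -0.31 to 0.10 without single samples (p 0.5 to 0.9), and p was 0.3 with implied fragments. *Sirt6* was at -0.02 with weights and -0.26 with the sex covariate, and p was 0.5 with implied fragments. *Hic1* ranged from -0.63 to 0.12 without single samples. With both experiments in 1 fit the *Sirt7* and *Mafg* locus was called (0.34, adjusted p = 0.0323), and 2 list genes were higher and 3 lower. *Hdac1* lost its call with ordinary variances (-2.91, adjusted p = 0.0847).

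For the difference, *Sirt6* ranged from -1.10 to -0.64 without single samples, so that 1 to 2 sirtuins were called lower. The sum of *Sirt7* and *Mafg* lost its call with the replicate block (0.50, adjusted p = 0.0626), with a sex covariate (0.41, adjusted p = 0.113) and among rows listed by name (0.50, adjusted p = 0.0829). The block changed no other call of a sirtuin.

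Over all genes, 3659 were higher and 4179 lower in the 3-day experiment, and 477 and 549 by name only. In the restimulation experiment 4 were higher and 9 lower, and the counts ran from 0 to 642 and from 4 to 710, with the most in the fit of both experiments. For the difference, 1014 higher and 922 lower became 38 and 16 by name only and 587 and 529 with separate spreads, and 486 were lower with the sex covariate. The causes of these shifts were not tested. Depth limits *Sirt5* most, which rested on 36 implied fragments in HDAC1cKO-HDAC2HET replicate 3.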

Other observations

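Cufflinks also listed short assembled loci inside some genes. Inside *Sirt4* there were 3, 2, 1 and 1 of them in the 3-day WT samples and 0 in each HDAC1cKO-HDAC2HET sample, but 0, 1 and 2 in the restimulated WT and 0, 3 and 0 in the HDAC1cKO samples. Inside *Sirt5* there were 1, 2, 0 and 1 in the 3-day WT and 0 in each HDAC1cKO-HDAC2HET sample, and 0, 2 and 1 in the restimulated WT and 0, 0 and 1 in the HDAC1cKO samples. Inside *Hdac1* none was listed in any of the WT samples of either experiment, while the HDAC1cKO-HDAC2HET samples had 6, 4, 1 and 5 and the HDAC1cKO samples 5, 0 and 4. How reads were shared between these short loci and the genes around them was not tested.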
